A study of Mus musculus with 6 samples.

Results

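Type I interferon-stimulated genes, the genes that cells switch on when interferon alpha or beta reaches them, were followed in RNA from atherosclerotic plaque. The set was given as a list of 45 gene symbols, and no threshold on a measured value entered it. It also holds Ifnar1 and Ifnar2, the subunits of the interferon receptor. All 45 were found among the 24062 symbols of the count table, and all 45 were among the 15222 genes kept for testing.

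Type I interferons bind a receptor made of Ifnar1 and Ifnar2. The kinases on its inner side switch on Stat2, which joins Irf9 in a transcription factor complex that binds a DNA element called ISRE. The genes behind that element include sensors of foreign nucleic acid, enzymes and GTPases that block viruses, and regulators that strengthen or end the signal. In plaque they are known from macrophages and other cells, and interferon gamma induces many of them too.

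The samples were plaque of the aortic arch from C57BL/6 mice, and both groups had the same genotype. The mice were fed for 12 weeks on a high-fat diet (TD88137), and after it for 3 weeks on one low in fat. In 3 samples the mice had been given ABT263 (navitoclax, an inhibitor of BCL-2, BCL-xL and BCL-w that is used to remove senescent cells) daily by intraperitoneal injection in week 1 of the low-fat diet, at 100 mg/kg, and in the other 3 a vehicle. Neither the number of doses nor the age and sex of the mice, nor whether each sample was a separate mouse, is given in the labels, so p-values measure only the spread between these samples, which may be technical.

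The shallowest library held 62930547 counts and the deepest, Vehicle replicate 2, held 110452098. Levels below are in CPM, a count relative to its library's total after TMM scaling, and fold changes are ABT263 over vehicle. Tissue markers were present in all 6 libraries, with Cd68 of macrophages at 270.4 to 1168 CPM and Acta2 of smooth muscle at 900.1 to 6131 CPM. ABT263 replicate 2 stood apart by fat genes, with Adipoq at 356 CPM against 0.0960 to 0.510 CPM in the other 5 libraries.

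The 45 interferon-stimulated genes were set apart mainly by 1 vehicle library. Vehicle replicate 2 was the highest of the 6 libraries for 41 of the 45 genes (91.1%), compared with 4565 of the 15222 genes tested (30.0%). The 4 exceptions were Isg15, Isg20, Rsad2 and Trim25. The ratio of Vehicle replicate 2 to the mean of Vehicle replicates 1 and 3 had a median of 3.90 over the 45 genes and 1.004 over all genes tested, and it ran from 0.694 for Trim25 to 22.9 for Mx1. For 16 of the 45 genes (35.6%) Vehicle replicate 2 exceeded the next highest library by more than 4-fold, which was so for 154 of all genes tested (1.01%). Among the other libraries the order was looser. ABT263 replicate 2 was the highest of the 3 ABT263 libraries for 33 of the 45 genes (73.3%, against 38.7% of all genes tested), and Vehicle replicate 3 exceeded Vehicle replicate 1 for 35 (77.8%, against 50.2%). Set against the range of the ABT263 libraries, Vehicle replicate 2 lay above it for 41 genes (91.1%, against 34.4% of all genes tested) and Vehicle replicate 3 for 24 (53.3%, against 23.1%). Vehicle replicate 1 lay above it for 13 (28.9%, against 25.0%) and below it for 12 (26.7%, against 25.2%), shares near those of all genes.

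**Figure D1:**
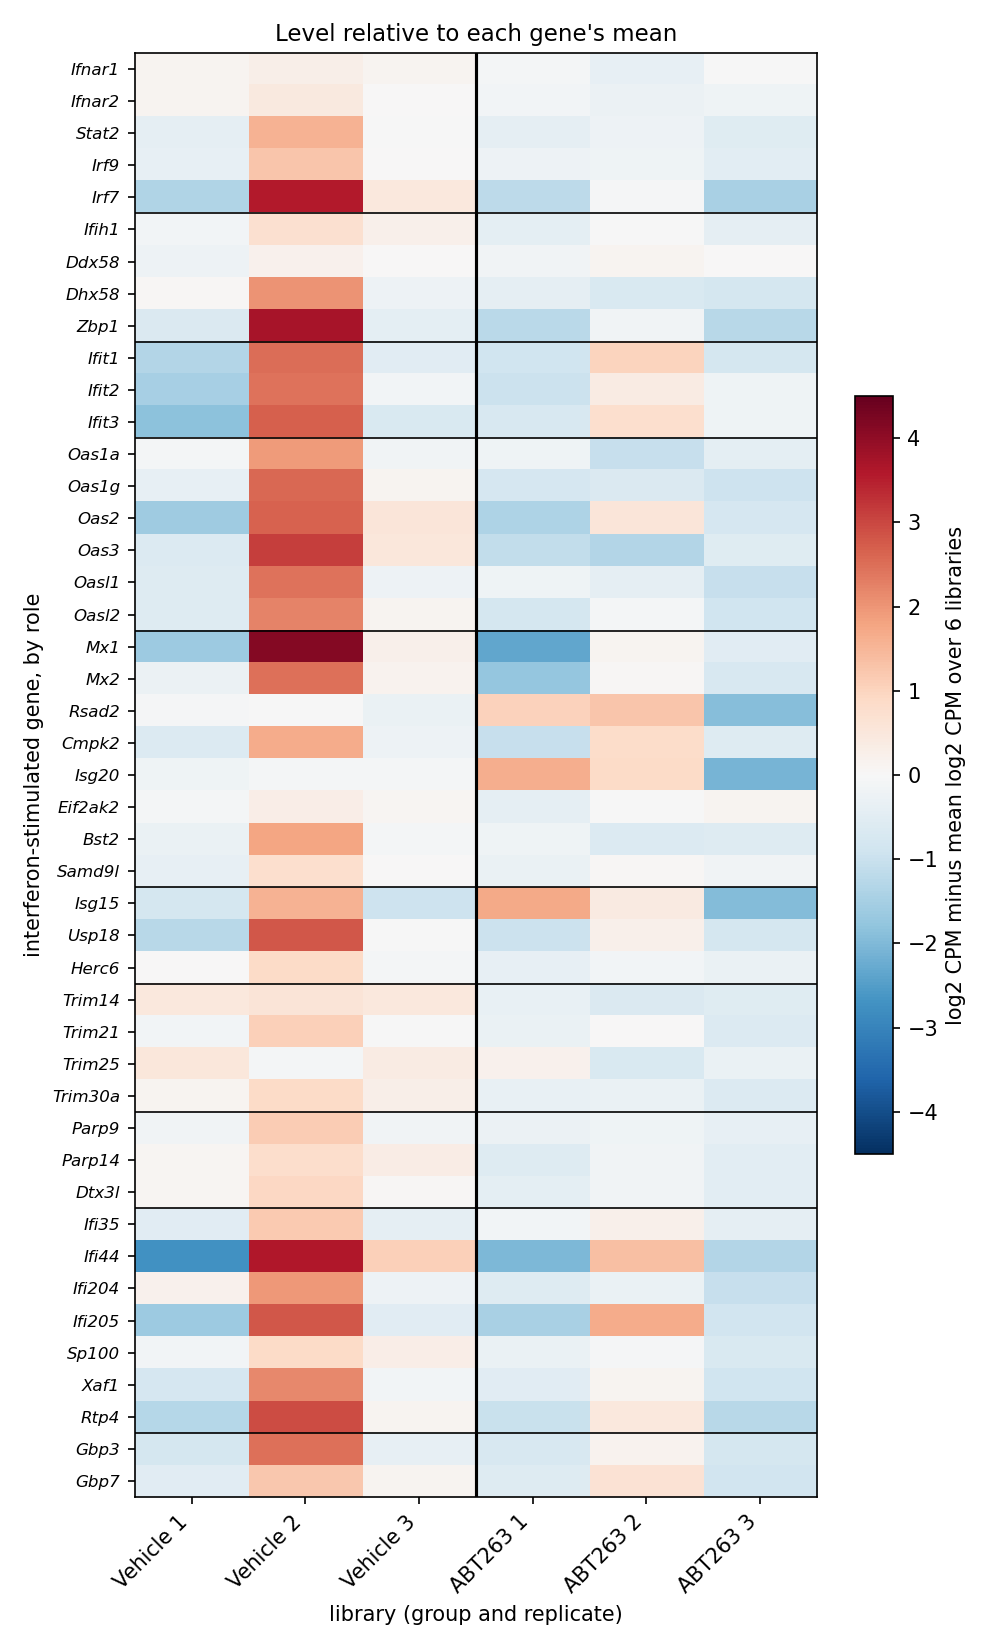
Log2 CPM of each of the 45 genes (rows, ordered by role, with lines between role groups) minus that gene's mean over the 6 libraries (columns), red for above and blue for below. Vehicle 2 is the highest library for 41 genes, while the Isg20 and Rsad2 rows are highest in ABT263 1 and ABT263 2.

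**Figure D2:**
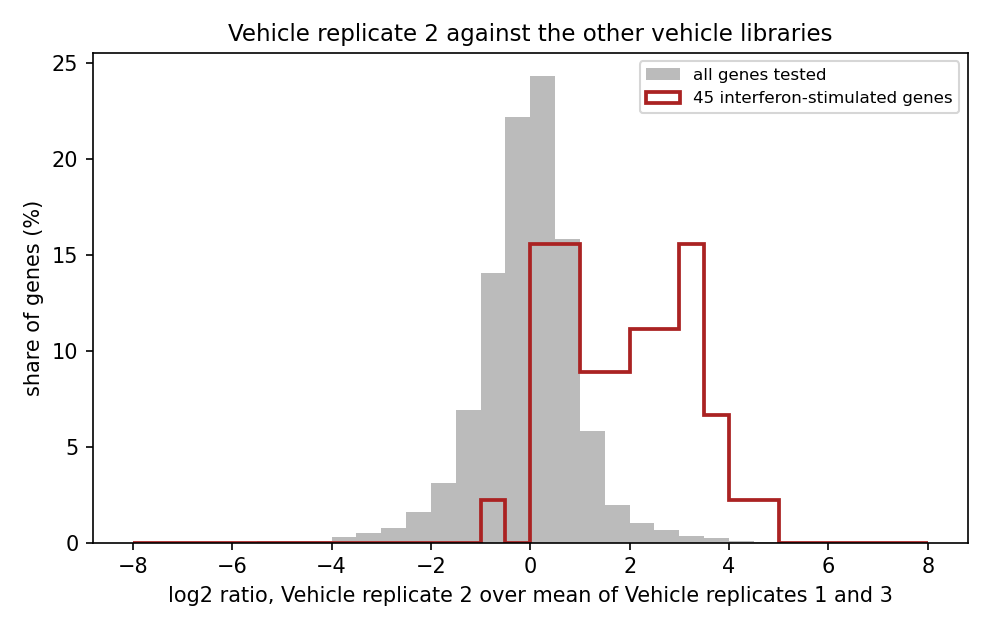
Share of genes (vertical axis, percent) by the log2 ratio of Vehicle replicate 2 to the mean of Vehicle replicates 1 and 3 (horizontal axis), in grey for all genes tested with a value above 0 in these libraries and in red for the 45 interferon-stimulated genes. The grey bars centre near 0, and the red outline lies to the right of 0 but for Trim25.

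Against the vehicle group, 41 of the 45 genes had a negative fold change, where 49.9% of all genes tested did, and their median log2 fold change was -1.004 against 0.00080 over all genes tested. None passed. By the quasi-likelihood test of edgeR with Benjamini-Hochberg adjustment over all genes, 0 of the 45 were called (background 0%), and the smallest adjusted p among them was 0.592. At an unadjusted p under 0.05 it listed 11 of the 45, all lower with ABT263, or 24.4% against a background of 3.68%. None of the 45 was listed higher, where the background is 4.7%, and over both directions 1276 genes were listed (8.38%). DESeq2 gave a p-value for 43 of the 45, all but Gbp3 and Zbp1. It called 1 of the 43, Trim14 (all calls 1.06% of genes with an adjusted p, calls of lower genes 0.582%). At an unadjusted p under 0.05 DESeq2 listed 19 of the 43, all lower, against a background of 11.4% over both directions. Limma-voom called 0 (background 0%) and listed 4 of the 45, all lower, against 5.62% over both directions. In 12 of the 45 genes (26.7%) all 3 ABT263 libraries lay below all 3 vehicle libraries, where the background is 6.31%. In 0 of the 45 they all lay above, where it is 5.68%. With levels scaled by library totals alone the 12 became 8 (background 4.03%), and again 0 lay above (background 8.56%). Over all genes tested that scaling turned 960 lower and 864 higher genes into 613 and 1303.

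The number of negative fold changes and their median rested in large part on Vehicle replicate 2. Without it 29 of the 45 genes had a negative fold change (background 45.8%), the median log2 fold change was -0.18, and 4 genes had an unadjusted p under 0.05 by edgeR, all lower (background 3.96%): Trim14, Trim30a, Parp14 and Dtx3l. The count at that p moved with other libraries too. It was 25 of the 45 without Vehicle replicate 1 (background over both directions 5.15%) and 17 without Vehicle replicate 3 (6.44%), all lower. Without ABT263 replicates 1, 2 and 3 it was 4, 5 and 6 of the 45, against backgrounds over both directions of 12.0%, 4.23% and 6.17%. The 4 and the 5 were all lower, and the 4 were a smaller share than their background over both directions. The last 6 held 4 lower genes and 2 higher ones, Isg20 and Rsad2. The count of genes whose groups did not overlap was 13 without Vehicle replicate 2 (28.9%, background 14.4%). At a fixed scaling, leaving out a library can only keep or add such genes, and the gene added was Trim25. Leaving out Vehicle replicate 1 made it 23 (background 9.58%), and leaving out ABT263 replicate 2 made it 19 (background 9.17%). Both kinds of gene are described below, those high in Vehicle replicate 2 and those lower in every ABT263 library.

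**Figure D3:**
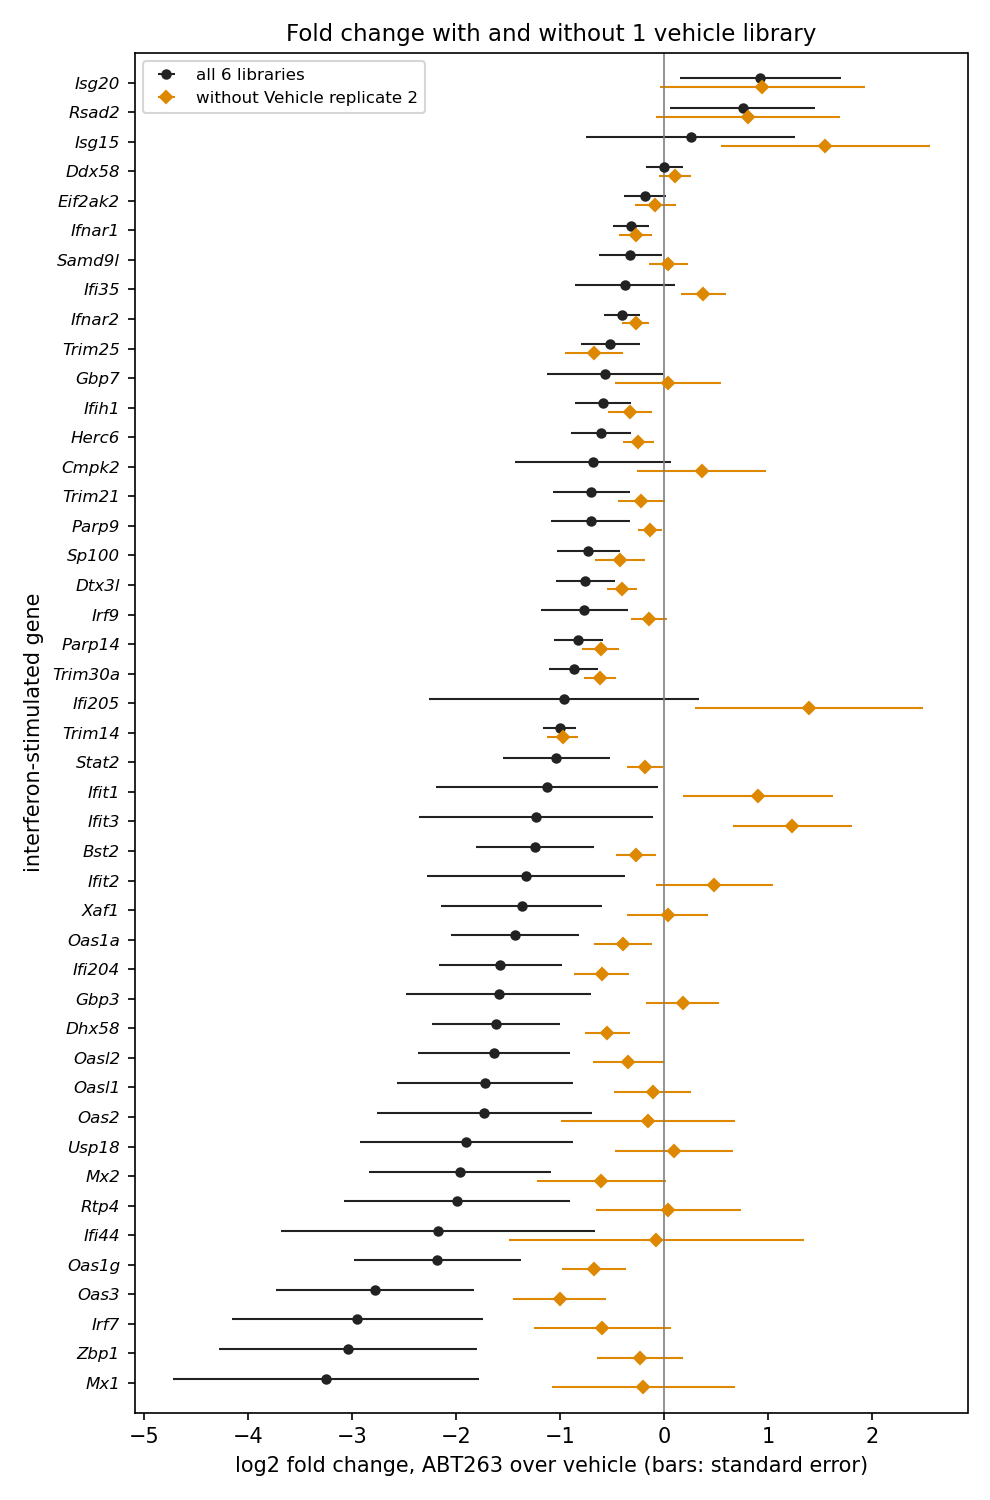
Log2 fold change (ABT263 over vehicle, horizontal axis) of the 45 genes with its standard error, from all 6 libraries (black circles) and without Vehicle replicate 2 (orange diamonds). Most black circles lie left of 0. Without that library the median moved from -1.004 to -0.18 and 12 of the 45 signs turned. Some orange diamonds, those of Isg15 and Trim25 among them, lie farther from 0 than their circles. Trim14 is at -0.98 without that library.

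The ISRE is the element that the complex of Stat2 and Irf9 binds, so promoters were read for it. RefSeq promoter windows (GRCm38.p6, from 250 bases before to 50 after a gene's start) were matched by symbol for 34 of the 45 genes. Not matched were Mx1, Mx2, Oas2, Usp18, Dhx58, Rtp4, Trim14, Parp9, Parp14, Zbp1 and Ifi204. The core searched was GAAA, any 2 bases and GAAA again, on either strand (so also TTTC, any 2 bases and TTTC), and overlapping matches were counted. It was present for 17 of the 34 genes (50%), against 3.99% of all 27025 genes with a window. The core of the GAS element, known from the response to interferon gamma, was searched as TTCNNNGAA and was present for 9 of the 34 (26.5%), against 9.55% of all genes. A match is a run of letters and not a measured site. Stretches upstream of the start are shown for a signalling gene, antiviral genes with a large excess in Vehicle replicate 2, and Isg15 and Rsad2, whose levels followed another pattern. Capitals mark the core or overlapping cores, and each stretch is read along the gene's own strand.
Stat2 (chr10:128270266-128270295, + strand): cgcaccctggTTTCAGTTTCctttccctag
Ifit1 (chr19:34640775-34640804, + strand): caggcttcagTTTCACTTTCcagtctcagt
Ifit1 (chr19:34640794-34640823, + strand): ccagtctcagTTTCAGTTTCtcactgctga
Ifit3 (chr19:34583363-34583392, + strand): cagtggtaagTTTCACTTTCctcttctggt
Oas1a (chr5:120907526-120907555, - strand): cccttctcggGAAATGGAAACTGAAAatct
Oas1g (chr5:120887614-120887641, - strand): cccttctcggGAAATGGAAACTGAAAat
Oas3 (chr5:120777715-120777744, - strand): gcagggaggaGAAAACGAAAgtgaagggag
Gbp3 (chr3:142559989-142560024, + strand): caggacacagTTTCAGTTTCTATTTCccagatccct
Isg15 (chr4:156200865-156200906, - strand): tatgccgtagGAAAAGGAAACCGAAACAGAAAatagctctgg
Rsad2 (chr12:26456553-26456582, - strand): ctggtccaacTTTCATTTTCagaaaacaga
The stretch of Isg15 holds 3 overlapping cores, and those of Oas1a and Oas1g carry the same 2. Among the 34 matched genes, Vehicle replicate 2 was highest for 15 of the 17 with the core and for 15 of the 17 without it. It was highest for 41 of all 45, which left these counts little room to differ. The median ratio of Vehicle replicate 2 to the other vehicle libraries was 3.86 with the core and 2.62 without it, over ranges of 1.12 to 14.6 and 0.694 to 13.4. Genes not matched, among them Mx1 at 22.9, Zbp1 at 19.0 and Trim14 at 1.06, are outside this comparison.

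The receptor subunits varied little between libraries and were lower in each ABT263 library. Ifnar1 (chromosome 16, 91485238 to 91507441, mm10) stood at 105, 116 and 107 CPM in vehicle replicates 1 to 3 and at 92.5, 75.3 and 95.8 CPM in ABT263 replicates 1 to 3. Ifnar2, on the same chromosome 79.6 kb away, stood at 91.1, 113 and 85.5 CPM and at 76.7, 69.1 and 73.6 CPM. The groups did not overlap for either, by margins of less than 10 CPM between the nearest libraries. The log2 fold changes were -0.32 (SE 0.17, unadjusted p = 0.107 by edgeR) and -0.40 (SE 0.17, unadjusted p = 0.0571 by edgeR), and both were -0.27 without Vehicle replicate 2.

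The transcription factors of the response were high in Vehicle replicate 2. Stat2 stood at 35.1, 138 and 45.4 CPM with vehicle and at 35.2, 39.5 and 31.9 CPM with ABT263. Irf9 followed the same order with vehicle, at 36.1, 109 and 47.3 CPM, and stood at 39.7, 40.4 and 33.3 CPM with ABT263. Without Vehicle replicate 2 their log2 fold changes went from -1.04 and -0.77 to -0.18 and -0.14. Irf7 (chromosome 7, 141262706 to 141266481), which drives the genes of interferon alpha itself, ranged far more widely, with 10.8, 326 and 37.9 CPM in the vehicle libraries and 12.3, 26.4 and 9.91 CPM in the ABT263 libraries. Vehicle replicate 2 was 8.60-fold above the next library, and of the other vehicle libraries replicate 1 stood within the ABT263 range and replicate 3 above it. The log2 fold change of Irf7 was -2.95 (SE 1.21, unadjusted p = 0.0468 by edgeR), or -0.59 without Vehicle replicate 2. Exons of Irf9 overlap those of Rnf31 and exons of Irf7 those of Phrf1, so part of their counts is uncertain.

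Irf1, which interferon gamma also induces and which is not among the 45, stood at 36.1, 299.9 and 51.8 CPM with vehicle and at 49.3, 60.1 and 31.6 CPM with ABT263. It is on a list of 10 kinases, STATs and IRFs. Of these, 0 passed in either direction, 9 had a negative fold change (background 49.9%) and the median was -0.40.

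Sensors of nucleic acid differed in how far they took part. Ddx58, the RNA sensor RIG-I, was the steadiest of the 45 genes, at 28.7, 38.8 and 34.7 CPM with vehicle and 30.5, 37.1 and 34.7 CPM with ABT263. Its log2 fold change was 0.0017 (SE 0.18), a sign that turned with RLE size factors (-0.015). Ifih1, the RNA sensor MDA5, stood at 19.3, 35.1 and 24.8 CPM against 15.8, 21.0 and 15.9 CPM (log2 fold change -0.59, SE 0.27). Dhx58, or LGP2, which tunes both of them, stood at 15.1, 58.8 and 12.3 CPM with vehicle and at 10.9, 8.89 and 8.30 CPM with ABT263. Its groups did not overlap, and the log2 fold change was -1.62 (SE 0.61, unadjusted p = 0.0354 by edgeR), or -0.55 without Vehicle replicate 2. Zbp1, a sensor of Z-form nucleic acid that can start inflammatory cell death (chromosome 2, 173206612 to 173218923), stood at 6.86, 139.6 and 7.85 CPM against 4.62, 9.66 and 4.57 CPM. Vehicle replicate 2 was 14.4-fold above the next library, which was ABT263 replicate 2. The log2 fold change of Zbp1 was -3.03 (SE 1.24, unadjusted p = 0.0463 by edgeR), or -0.23 without Vehicle replicate 2.

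The IFIT genes, whose proteins bind foreign RNA and block its translation, lie together on chromosome 19, with 7.1 kb between Ifit2 and Ifit3 and 52.1 kb between Ifit3 and Ifit1. Ifit1 stood at 2.02, 28.3 and 3.48 CPM with vehicle and at 2.71, 9.93 and 2.86 CPM with ABT263. Ifit2 stood at 5.26, 80.6 and 13.6 CPM and at 7.62, 19.1 and 12.97 CPM. Ifit3 stood at 4.73, 112 and 10.6 CPM and at 10.3, 28.7 and 15.1 CPM. All 3 were highest in Vehicle replicate 2, next in ABT263 replicate 2 and lowest in Vehicle replicate 1, so the groups overlapped. Their log2 fold changes of -1.13 (SE 1.07), -1.33 (SE 0.95) and -1.23 (SE 1.12) turned to 0.90, 0.48 and 1.23 without Vehicle replicate 2.

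The OAS family includes enzymes that make oligoadenylates, which switch on the RNA-cutting enzyme RNase L. All 6 OAS genes of the set were highest in Vehicle replicate 2 and had a negative fold change. Their median was -1.73 on the log2 scale. Oas1a and Oas1g are near-identical neighbours on chromosome 5, 8.6 kb apart, and reads shared between them make their separate counts uncertain. Oas1a stood at 24.3, 98.8 and 23.2 CPM against 22.8, 12.5 and 19.0 CPM, and Oas1g at 2.85, 22.4 and 4.01 CPM against 2.2, 2.33 and 1.93 CPM. Neither overlapped between the groups. The unadjusted p by edgeR was 0.0549 for Oas1a (log2 fold change -1.43, SE 0.62) and 0.0321 for Oas1g (-2.18, SE 0.81). Oas1a overlapped when levels were scaled by library totals alone.

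Oas3 stood at 3.10, 40.6 and 6.73 CPM with vehicle and at 2.19, 1.93 and 3.24 CPM with ABT263. It had the smallest unadjusted p of the family, 0.0238 by edgeR (log2 fold change -2.78, SE 0.95), and its log2 fold change was -1.005 without Vehicle replicate 2. Oas2, next to Oas3 at 3.2 kb, did not share its low value in ABT263 replicate 2. It stood at 1.90, 36.2 and 8.55 CPM and at 2.2, 8.48 and 3.45 CPM (log2 fold change -1.73, SE 1.04). Oasl2 stood at 14.2, 99.8 and 23.0 CPM and at 12.5, 20.2 and 11.5 CPM (log2 fold change -1.64, SE 0.73). Oasl1, which in mice holds back the translation of Irf7, had a log2 fold change of -1.72 and ran from 2.02 to 22.7 CPM.

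**Figure D4:**
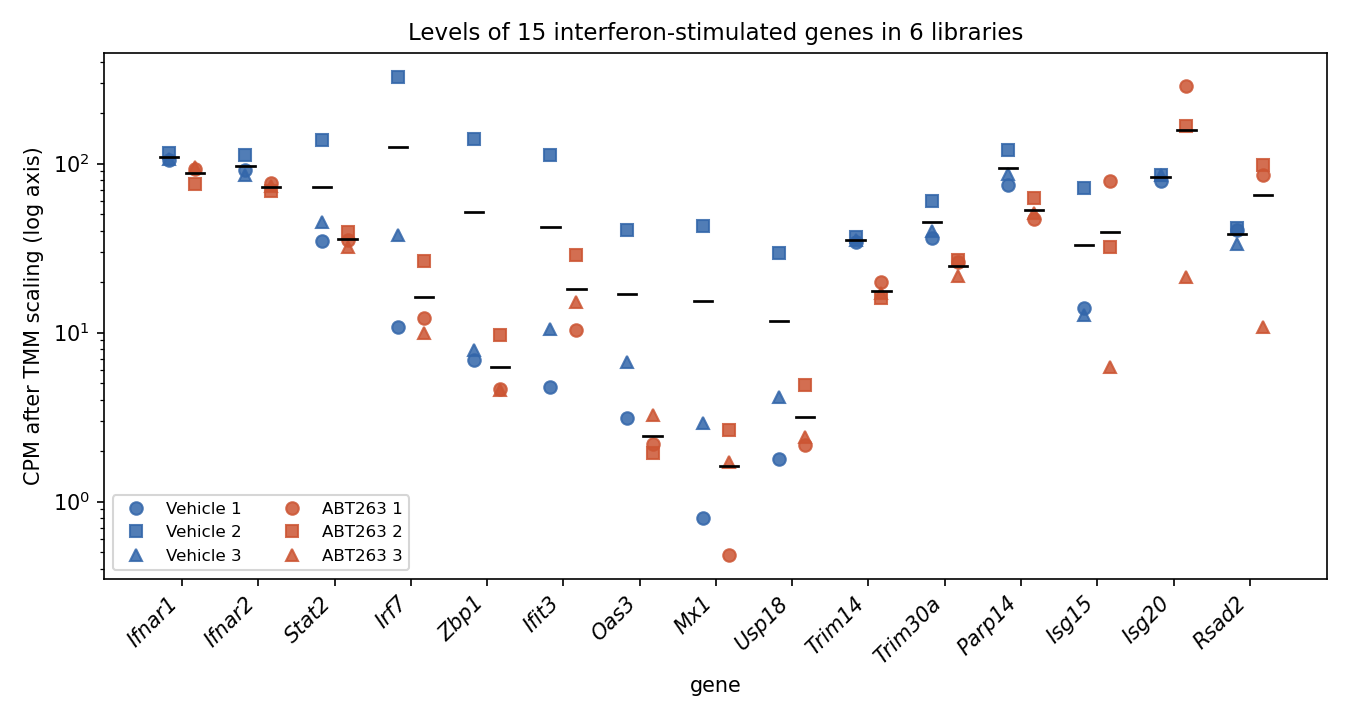
CPM after TMM scaling (log axis) of 15 interferon-stimulated genes in each library, blue for vehicle and orange for ABT263, with circles, squares and triangles for replicates 1, 2 and 3 and black lines for the means of 3. Blue squares stand far above the rest from Stat2 to Usp18, the groups are separate for Ifnar1, Ifnar2, Trim14, Trim30a and Parp14, and the last 3 genes spread widely among the ABT263 libraries.

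Mx1 showed the widest spread of the 45 genes, 87.7-fold from the lowest to the highest library. The Mx proteins are GTPases that trap viral nucleoproteins, and the Mx1 allele of most inbred laboratory mice, C57BL/6 included, makes no working protein. Mx1 (chromosome 16, 97447035 to 97462907) stood at 0.800, 42.6 and 2.91 CPM with vehicle and at 0.485, 2.65 and 1.72 CPM with ABT263. Its log2 fold change of -3.25 (SE 1.47, unadjusted p = 0.0648 by edgeR) was -0.20 without Vehicle replicate 2. Mx2, 72.4 kb away, stood at 1.01, 6.77 and 1.36 CPM and at 0.362, 1.26 and 0.729 CPM (log2 fold change -1.96, SE 0.88). Both were lowest in ABT263 replicate 1, and the groups overlapped for both.

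Bst2, or tetherin, which holds budding virus at the cell surface, stood at 93.3, 388 and 108 CPM with vehicle and at 99.9, 73.7 and 76.6 CPM with ABT263 (log2 fold change -1.24, SE 0.57). Leaving out Vehicle replicate 2 gave -0.27. Per kilobase of exon it had the highest mean level of the 45 genes over the 6 libraries, 155 CPM per kilobase, and Mx2 had the lowest, 0.530. Eif2ak2, the kinase PKR that stops translation on meeting double-stranded RNA, stood at 26.4, 34.2 and 29.9 CPM and at 21.2, 27.9 and 30.6 CPM. It varied little and its groups overlapped (log2 fold change -0.18, SE 0.20). Samd9l, a restriction factor, ran from 43.5 to 94.0 CPM, with a log2 fold change of -0.33 that became 0.040 without Vehicle replicate 2.

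Rsad2, Isg20 and Isg15 went their own way, with high values in ABT263 replicates 1 and 2 and the lowest value in ABT263 replicate 3. Rsad2, or viperin, which makes a nucleotide that ends viral RNA chains (chromosome 12, 26442746 to 26456452), stood at 40.4, 41.4 and 33.4 CPM with vehicle and at 85.3, 98.3 and 10.9 CPM with ABT263. Isg20, an exonuclease that degrades RNA (chromosome 7, 78913424 to 78920396), stood at 79.0, 85.2 and 85.1 CPM and at 287, 166 and 21.4 CPM. For both, the 3 vehicle libraries lay close together, Vehicle replicate 2 among them, and the ABT263 libraries lay on either side. The log2 fold changes were 0.76 (SE 0.70) for Rsad2 and 0.93 (SE 0.78) for Isg20, neither past the threshold. Isg15, the ubiquitin-like protein that is joined to other proteins (chromosome 4, 156199424 to 156200818), combined both patterns. It stood at 14.1, 71.9 and 12.8 CPM with vehicle and at 79.4, 32.2 and 6.24 CPM with ABT263. Its log2 fold change was 0.26 (SE 1.002). Leaving out Vehicle replicate 2 made it 1.55, and leaving out ABT263 replicate 1 made it -0.78. Isg15 was also negative without Vehicle replicate 1 (-0.11) or 3 (-0.14).

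The nearest neighbour of Rsad2 among the 45 did not follow it. Cmpk2, a nucleotide kinase of mitochondria, lies 12.8 kb from Rsad2 and ran from 2.94 CPM in ABT263 replicate 1 to 19.3 CPM in Vehicle replicate 2, with a log2 fold change of -0.68 (SE 0.75). Usp18, which removes Isg15 from proteins and shuts off the receptor, did not follow Isg15 either. It stood at 1.78, 29.4 and 4.14 CPM with vehicle and at 2.15, 4.92 and 2.41 CPM with ABT263 (log2 fold change -1.90, SE 1.02). Leaving out Vehicle replicate 2 gave 0.091. Herc6, the main ligase for Isg15 in mice, stood at 21.4, 38.3 and 20.0 CPM and at 16.2, 19.2 and 16.95 CPM. Its groups did not overlap with TMM scaling, by less than 1 CPM, and did with library totals alone (log2 fold change -0.61, SE 0.28).

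The TRIM family held the clearest separation of the groups. Trim14, an adaptor in signalling from RNA sensors at mitochondria (chromosome 4, 46493781 to 46536141), stood at 34.4, 36.9 and 35.1 CPM with vehicle and at 20.1, 16.0 and 17.1 CPM with ABT263. Within each group the libraries lay close together, at 35.5 ± 1.3 CPM and 17.7 ± 2.12 CPM (SD, n = 3 each), and Vehicle replicate 2 was not set apart. The log2 fold change was -1.004 (SE 0.16), with an unadjusted p of 0.000516 and an adjusted p of 0.592 by edgeR, and an adjusted p of 0.000160 by DESeq2. In the fits that left out 1 library in turn it ran from -1.11 to -0.93. Exons of Trim14 overlap those of Nans on the opposite strand, and the library kit does not mark strand, so reads of both cannot be told apart there.

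Trim30a, which restrains signalling from Toll-like receptors, stood at 36.2, 60.0 and 39.99 CPM with vehicle and at 26.2, 26.8 and 21.6 CPM with ABT263. Its groups did not overlap (log2 fold change -0.87, SE 0.24, unadjusted p = 0.00891 by edgeR), and the log2 fold change was -0.62 without Vehicle replicate 2. Trim21, an intracellular receptor for antibodies, stood at 15.8, 35.8 and 16.8 CPM and at 13.9, 17.1 and 11.1 CPM, and overlapped (log2 fold change -0.70, SE 0.37). Trim25, a ligase that acts on RIG-I, was the 1 gene of the 45 with its highest level in Vehicle replicate 1, 141 CPM. It stood at 93.9 CPM in Vehicle replicate 2 and had a log2 fold change of -0.52 (SE 0.28), or -0.67 without that library.

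Parp9, Dtx3l and Parp14, which add ADP-ribose or ubiquitin to proteins in the interferon response, lie on chromosome 16 with 55.0 kb between Parp14 and Dtx3l, and all 3 were lower in each ABT263 library. Parp14 (35832874 to 35871544) stood at 75.1, 121 and 87.4 CPM with vehicle and at 46.7, 62.7 and 50.7 CPM with ABT263 (log2 fold change -0.83, SE 0.24, unadjusted p = 0.0109 by edgeR). Dtx3l stood at 33.4, 60.9 and 32.7 CPM and at 23.6, 28.5 and 23.0 CPM (log2 fold change -0.76, SE 0.28, unadjusted p = 0.0333 by edgeR). Without Vehicle replicate 2 these were -0.61 and -0.41. Parp9 stood at 36.1, 88.9 and 36.0 CPM and at 33.0, 34.6 and 31.1 CPM, so that outside Vehicle replicate 2 its groups were less than 2 CPM apart, and they overlapped with library totals alone. Exons of Parp9 and Dtx3l overlap on opposite strands, so part of their counts is shared.

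Of the other interferon-inducible genes, all 7 were highest in Vehicle replicate 2 and had a negative fold change. Ifi204, a DNA-binding protein of the p200 family, stood at 38.0, 130.4 and 28.8 CPM with vehicle and at 22.7, 27.3 and 16.2 CPM with ABT263, and its groups did not overlap (log2 fold change -1.57, SE 0.59, unadjusted p = 0.0345 by edgeR). They did with library totals alone. Sp100, a protein of nuclear bodies, stood at 40.8, 82.1 and 55.5 CPM and at 36.3, 43.3 and 28.0 CPM (log2 fold change -0.73, SE 0.30, unadjusted p = 0.0484 by edgeR), and its groups overlapped. Rtp4, which curbs flaviviruses, stood at 3.93, 72.7 and 10.2 CPM and at 4.69, 13.3 and 3.95 CPM. Ifi44 stood at 0.256, 20.6 and 3.52 CPM and at 0.413, 4.33 and 0.673 CPM. Both shared with the IFIT genes that Vehicle replicate 2 was highest, ABT263 replicate 2 next and Vehicle replicate 1 lowest. The log2 fold changes of Rtp4 and Ifi44 were -1.99 (SE 1.09) and -2.17 (SE 1.51), or 0.039 and -0.075 without Vehicle replicate 2. Ifi35, Ifi205 and Xaf1 had log2 fold changes of -0.38, -0.96 and -1.37, which were 0.38, 1.396 and 0.035 without Vehicle replicate 2. Ifi205 is related in sequence to Ifi204, so its count may be uncertain.

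The guanylate-binding proteins, GTPases that attack membranes around microbes, are represented by neighbours on chromosome 3, 9.9 kb apart. Gbp3 stood at 17.1, 166 and 23.1 CPM with vehicle and at 18.0, 33.1 and 17.2 CPM with ABT263. Gbp7 stood at 15.5, 51.3 and 24.4 CPM and at 14.8, 34.5 and 12.2 CPM. Both were highest in Vehicle replicate 2 and next in ABT263 replicate 2. The log2 fold changes of -1.59 (SE 0.89) and -0.57 (SE 0.56) became 0.18 and 0.036 without Vehicle replicate 2.

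Transcripts of the type I interferons were near or at 0. Of 18 such genes listed, 13 had 0 counts in all 6 libraries, which allows up to 0.0278 to 0.0480 CPM per library, a limit that covers counting error only. None of the 18 passed the filter on low counts. Ifnb1, interferon beta, had 12 counts in Vehicle replicate 2 (0.111 CPM) and 0 in each of the other 5 libraries. Ifng, interferon gamma, had 569 counts in Vehicle replicate 2 (5.28 CPM) and between 2 and 25 counts elsewhere, that is 0.0207 to 0.366 CPM (log2 fold change -4.09, SE 1.71, unadjusted p = 0.0502 by edgeR). The genes that exceeded the next highest library most in Vehicle replicate 2 were the chemokine genes Cxcl9 (421.6 against 0.0930 to 3.79 CPM) and Cxcl10 (93.6 against 0.0826 to 1.64 CPM). Both are inducible by interferon gamma and were picked here after their values were seen. Cxcl10 is also on the list of 51 further interferon-stimulated genes below. By the same excess over the next highest library, Mx1, Zbp1 and Irf7 ranked 10, 11 and 34.

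A list of 51 further interferon-stimulated genes had counts much like those of the 45. It was chosen with earlier results of these data known, so it is no independent check. Of 49 tested, 0 passed in either direction and 45 had a negative fold change (background 49.9%), with a median of -1.01. In Vehicle replicate 2, 42 were highest (background 30.0%). The background of 49.9% holds for the next 3 lists too. Of 11 adaptors, kinases and receptors that lead to interferon production, 0 passed and 9 had a negative fold change (median -0.39). Of 12 negative regulators 0 passed and 7 had a negative fold change (median -0.36), near the background. Of 5 tested genes for other interferons and their receptors 0 passed and all 5 had a negative fold change (median -0.37).

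Cell type markers were read beside these values. Of all genes tested, 30.0% were highest in Vehicle replicate 2 and 49.9% had a negative fold change. In bulk RNA, fewer cells of a type and less RNA per cell cannot be told apart. Of 14 macrophage markers, all had a negative fold change and 8 were highest in Vehicle replicate 2. They summed to 16001, 17139.5 and 10470 CPM with vehicle and to 4742 to 9198 CPM with ABT263. Mertk and Mrc1 were lowest of the 6 libraries in Vehicle replicate 2, at 88.1 and 42.9 CPM. The 9 T cell markers were all negative and 7 were highest in Vehicle replicate 2. They summed to 202, 232 and 230 CPM with vehicle and to 47.6 to 171 CPM with ABT263. Cd4 was lower in Vehicle replicate 2 (20.6 CPM) than in the other vehicle libraries (51.0 and 77.7 CPM). Plasmacytoid dendritic cells are a main source of interferon alpha. Their 12 markers summed to 249 to 332 CPM with vehicle and 165 to 202 CPM with ABT263. Of the 12, 3 were highest in Vehicle replicate 2, near the share of all genes. Lair1, which other leukocytes express too, made up 251 of the 332 CPM in that library. Without Lair1, left out after the values were seen, the sums were 147.2, 80.7 and 163 CPM with vehicle and 115 to 128 CPM with ABT263, lowest in Vehicle replicate 2. Most of each of these sums was 1 gene, Tcf4, so their order says little of the other markers. Tcf4 stood at 96.7, 46.1 and 103.8 CPM with vehicle and at 85.5 to 93.9 CPM with ABT263. Siglech, which defines plasmacytoid dendritic cells, was at 0.0742 CPM in Vehicle replicate 2 and at 0.0620 to 1.05 CPM in the others. Markers of conventional dendritic cells, 9 in all, summed to 596 to 855 CPM with vehicle and 197 to 598 CPM with ABT263. Itgax made up most of that sum in each library, with 486 CPM in Vehicle replicate 2. Of the 9, 3 were highest in Vehicle replicate 2, near the share of all genes. The 3, named after their values were seen, were Xcr1, Clec9a and Batf3, at 7.89, 49.98 and 18.9 CPM there. In the other libraries they stood at 0.165 to 1.92, 2.89 to 10.7 and 2.65 to 5.25 CPM. Zbtb46 and Fscn1 were lowest in Vehicle replicate 2. Flt3, Ccr7 and Cd209a stood at 1.51, 4.30 and 0.965 CPM there, below their 3.79, 6.05 and 6.21 CPM in Vehicle replicate 3. The 9 B cell markers were all negative and 0 were highest in Vehicle replicate 2. They summed to 186, 110.5 and 198 CPM with vehicle and to 31.3 to 86.6 CPM with ABT263, so that Vehicle replicate 2 was the lowest vehicle library. The 8 neutrophil markers tested were all negative and 6 were highest in Vehicle replicate 2. With 1 more that was not tested they summed to 125 to 281 CPM with vehicle and 48.8 to 126 CPM with ABT263. The 8 fibroblast markers were all positive, at 2250.5 to 3549 CPM with vehicle and 3443 to 6328 CPM with ABT263 in sum. The 9 markers of contractile smooth muscle were all positive, at 2652 to 3635 CPM with vehicle and 2421 to 15891.5 CPM with ABT263 in sum. Endothelial markers were lowest in Vehicle replicate 2, with a sum of 487 CPM against 1807 to 5056 CPM in the other 5 libraries. Rn45s, the ribosomal RNA precursor, stood at 5834, 17860.1 and 5509 CPM with vehicle and at 2838 to 3449 CPM with ABT263. No marker in these lists was at 0 in all libraries, and the part of cell content or of ribosomal RNA in the interferon values was not tested.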

How the data were processed

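The values are raw counts as the authors deposited them, in 1 table of gene symbols by 6 libraries. RNA was column-extracted and sequencing libraries were prepared by TruSeq RNA v2 chemistry, per the labels' protocols. Per the submitters' processing notes, which give no role or order, mm10, featureCounts 1.4.6, Subread, Bowtie2 2.2.6 and TopHat2 2.0.14 were used. For the annotation, the strand setting and reads that map to several places the entry is: not given in the sources used here. Reads dropped or split between related genes would lower the counts of the Oas1, Ifi200 and Ifit genes.

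Groups came from sample titles. Replicate numbers follow accession order and pair nothing. Genes were kept by filterByExpr (minimum count 10, minimum total 15) and tested in edgeR 4.0.16 (R 4.3.3; quasi-likelihood F-test) on the group alone, with TMM factors, 4 residual degrees of freedom and Benjamini-Hochberg adjustment over all genes at 0.05. The SE is |log2 fold change| over the root of the F statistic. The procedure was tested on simulated data. RLE factors, library totals, no filter, DESeq2 1.42.0, limma-voom (limma 3.58.1) and leaving out libraries were tried as alternatives. The alternatives for the counts of negative, unadjusted and non-overlapping genes were added after seeing the data. Gene positions and exon lengths are from GENCODE M21 (GRCm38, which mm10 denotes), where all 45 symbols matched and 16 had exons overlapping another gene. Promoter sequences are from RefSeq.

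The members and lists were chosen with earlier results of these data known. Values in every library were given for 34 genes named by rule and for others with non-overlapping groups or an unadjusted p under 0.05. Isg20 was given in every library outside that rule. Cxcl9, Cxcl10, Xcr1, Clec9a and Batf3 were named after their values were seen. Some items are not reported here.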

Additional observations from a re-analysis of the deposited data

How the results depend on the processing

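No paired analysis was possible because the labels give the samples no shared replicate numbers. DESeq2 called 153 genes in all and 1 of the 43 it gave a p-value where edgeR called 0, and listed 19 at an unadjusted p under 0.05. Limma-voom listed 4. Without Vehicle replicate 2 and ABT263 replicate 2 together 6 of the 45 were listed (background 7.11%) and 20 did not overlap (background 19.7%). When 1 library was left out in turn, 4 to 25 were listed (background 4.23% to 12.0%), 12 to 23 did not overlap (background 8.90% to 14.4%), 29 to 43 had a negative fold change, and the median log2 fold change ran from -1.37 to -0.18, and the cause of these shifts was not tested. Signs turned for 14 of the 45 genes in those fits. The log2 fold change ran from -0.11 to 0.10 for Ddx58, -0.78 to 1.55 for Isg15, -2.02 to 0.90 for Ifit1, -1.84 to 0.48 for Ifit2, -1.76 to 1.23 for Ifit3, -1.44 to 0.36 for Cmpk2, -0.55 to 0.040 for Samd9l, -2.41 to 0.091 for Usp18, -0.66 to 0.38 for Ifi35, -2.54 to 1.396 for Ifi205, -1.80 to 0.035 for Xaf1, -2.75 to 0.039 for Rtp4, -2.05 to 0.18 for Gbp3 and -1.17 to 0.036 for Gbp7. Without both libraries Ifit1, Ifit2, Ifit3 and Ifi35 were at 0.018, 0.12, 0.73 and 0.19. Ddx58 was at -0.015 with RLE size factors and with DESeq2. With library totals alone, no filter or limma-voom no sign among the 45 turned. Depth limits the genes of interferon alpha and beta, whose counts were at or near 0.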
